A study of Rattus norvegicus with 9 samples.

Results

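Lrap is a gene for a long non-coding RNA, and the 6 rats that carry a deletion in it were taken as 1 group and set against 3 wild-type rats, in RNA from whole brain. The rule looks for genes and isoforms found in every mutant and in no wild type, or the reverse. A locus or isoform counted as present at 3 or more rounded reads in each rat of a group and as absent at 0 rounded reads in each. Of 114601 assembled loci, 2 were present in all mutants and absent in all wild types, and 5 the reverse. Of 145707 assembled isoforms, the same rule found 29 and 24. A second class, called separated here, let a few reads into the lower group: the lowest rat of the higher group stood at 4 or more times the highest rat of the other, with 5 or more reads in each rat of the higher group. It held 3 loci higher and 5 lower in the mutants, and 9 and 8 isoforms. Without wild-type rat 2 the all-or-none loci were 32 and the isoforms 154, since fewer rats must then meet the rule. Membership was set by these levels, so the levels of members are a description and carry no support of their own.

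All 9 rats were alcohol-naive males. The mutants, of the line Crl:WI-Lrapem1Geh, had lost 618 bp of Lrap through CRISPR/Cas9 editing, on both chromosomes in 3 homozygous rats and on 1 in 3 heterozygous rats. The 3 wild types were Wistar rats from Charles River. The sources used here do not give their relation to the mutants, such as shared litters, so that the deletion and any other difference between the 2 sources of rats cannot be told apart. All mutants shared 1 edited allele, and no allele or agent that the wild types also carry is named.

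Long non-coding RNAs are transcripts without a protein product that can act in the nucleus on other genes or on their splicing. A line built from an edited founder inherits the rest of that founder's chromosomes along with the edit. An outbred stock such as the Wistar rat carries several versions of many genes, and versions can differ in promoter use, splice sites and the sequence that reads align to. Transcript assembly turns such differences into separate isoforms or into loci with reads in some animals and none in others.

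The libraries held 27489383 to 46975919 expected counts. Wild-type rat 2 stood apart, with 40.4% of its reads on mitochondrial transcripts against 14.8 to 28.0% in the other rats. It also carried the spike-in proportions of the homozygous libraries, while the remaining wild types carried those of the heterozygous ones. In bulk tissue, fewer cells of a type and less RNA per cell cannot be told apart.

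The isoform taken here to hold the deleted bases was lower in every mutant than in every wild type. This 4-exon isoform (MSTRG.24458.2, chr12:39009743-39021546 of rn6, minus strand) has 618 bases that its 3-exon partner MSTRG.24458.1 lacks, as many as were deleted. Its level was 2.54, 1.87 and 2.41 CPM (reads scaled to the size of the library) in the wild types. Heterozygous rats had 0.996, 1.04 and 1.11 CPM and homozygous rats 0.265, 0.392 and 0.406 CPM. The 3 genotypes did not overlap, so the pooled mutants held a lower and a higher set of rats. Reads still fell on this isoform in homozygous rats, where both copies carry the deletion. The pooled mean was 0.703 ± 0.386 CPM (SD, n = 6), 30.9% of the wild-type 2.27 ± 0.357 (SD, n = 3). An exact two-sided permutation test over the 9 rats, which doubles the smaller tail, gave p = 0.0238. This is the smallest that such a test of 6 against 3 allows. Across all isoforms, edgeR's quasi-likelihood test gave a log2 difference of -1.65 (SE 0.41) with an adjusted p of 0.687. The 3-exon isoform stood at 3.45 ± 0.659 CPM (SD, n = 6) in the mutants and 3.08 ± 0.687 (SD, n = 3) in the wild types, and these ranges overlapped.

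**Figure D1:**
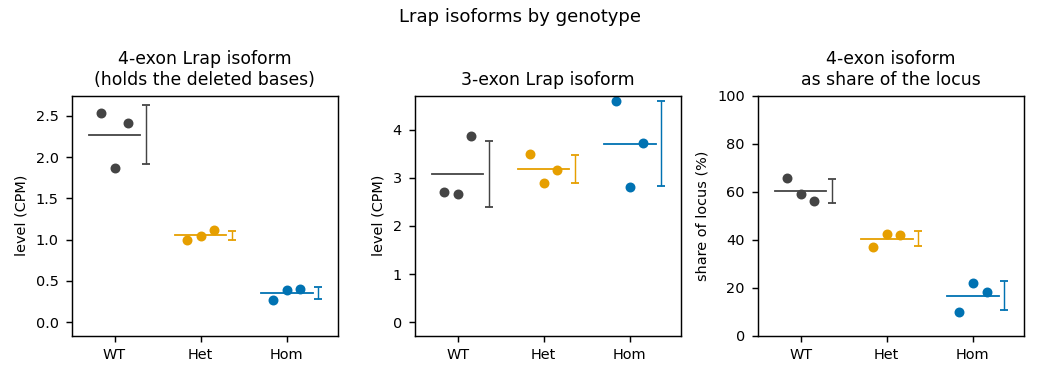
Level in CPM of the 2 Lrap isoforms and the share of the 4-exon isoform in the locus (%), by genotype (WT wild type, Het heterozygous, Hom homozygous). Each point is a rat, lines are means and bars are ± 1 SD (n = 3); the 4-exon isoform stands at 2.27 CPM in wild types, 1.05 in heterozygous and 0.354 in homozygous rats, while the 3-exon isoform overlaps between genotypes.

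Across the whole table few loci passed the test between pooled mutants and wild types. Of 39057 loci tested with edgeR, 2 had an adjusted p under 0.05 (0.00512%), 1 higher and 1 lower in the mutants. DESeq2 called 32, of which 29 were higher, and limma-voom none. Both loci also belong to the separated class, which uses the same contrast, so the 2 results are not independent of each other. Every mutant lay above every wild type at 495 tested loci (1.27%) and below at 633 (1.62%). On the authors' TPM scale the same count was 19 above and 3880 below. The median tested locus differed by -0.60 (log2) between mutants and wild types on that scale, against -0.05 on the CPM scale used here. Without wild-type rat 2 the counts were 1086 and 1112. The locus next in order of p, AABR07072025.1 (4.55 ± 0.737 CPM in wild types, SD, n = 3, and 12.1 ± 2.19 in mutants, SD, n = 6), had an edgeR adjusted p of 0.0626. The share with an unadjusted p under 0.05 was 4.11% for higher and 5.06% for lower loci.

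LOC685025, an uncharacterised gene on the X chromosome (MSTRG.109904, chrX:19383844-19386581 of rn6, minus strand), was the locus called higher. Wild-type rats 1 and 3 had no read and wild-type rat 2 had 2, a level of 0.0521 CPM. The mutants ranged from 0.683 to 1.47 CPM around a median of 0.924. Homozygous rats, at 0.705 to 1.05 CPM, lay inside the range of the heterozygous rats. The log2 difference was 5.66 (SE 0.71) and edgeR's adjusted p was 0.00877. With so few wild-type reads, the ratio of group totals was 61.4 with a counting interval of 16.8 to 510. The call was lost without wild-type rat 1 (adjusted p = 0.0508) or wild-type rat 3 (0.0653), and in the homozygous rats alone (0.428).

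MSTRG.37434, an unannotated 1-exon locus (chr16:2883947-2885275, minus strand), was the locus called lower. It lies inside Arhgef3, on the opposite strand. The wild types had 1.87, 2.45 and 2.33 CPM. In the mutants 2 rats had no read and the other 4 had 0.0879 to 0.227 CPM. Homozygous and heterozygous rats were mixed in that range. The log2 difference was -4.08 (SE 0.44, edgeR adjusted p = 0.00877), and the call held without any 1 rat (adjusted p 0.00674 to 0.0477). It was lost with either mutant genotype alone (adjusted p = 0.0663 in heterozygous and 0.446 in homozygous rats). The sources used here do not say whether the authors counted by strand, so reads of Arhgef3 and of this locus may have been mixed.

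Ppp1r35 was the only gene with a symbol among the loci present in 1 group and absent in the other. It codes for a regulatory subunit of protein phosphatase 1 that takes part in building centrioles, the organelles from which cilia grow. The locus (MSTRG.23662, chr12:21987896-21989339 of rn6, 4 exons, minus strand) held no read in any wild type. Heterozygous rats had 8, 17 and 17 reads (0.176, 0.343 and 0.446 CPM) and homozygous rats 17, 17 and 8 (0.752, 0.398 and 0.201 CPM). Set against 3 reads over the wild-type group, the level was at least 13.8-fold higher in mutants. The all-or-none share was 0.00516%, 2 of the 38789 loci present in all mutants. In the fit over all loci it had the smallest p of the symbol genes higher in mutants, yet did not pass (log2 difference 6.86, SE 1.19, edgeR adjusted p = 0.423). The 250 bases before its start are shown because this is the gene whose transcript was found in one group of rats and not in the other, in the RefSeq sequence of GRCr8 at chr12:24556029-24556278, minus strand, which is another build than the files' rn6 and another source of DNA than these rats. Capitals mark 2 GC boxes (GGGCGG), 1 CRE half-site (TGACG) and 1 CCAAT box, in that order.
Ppp1r35: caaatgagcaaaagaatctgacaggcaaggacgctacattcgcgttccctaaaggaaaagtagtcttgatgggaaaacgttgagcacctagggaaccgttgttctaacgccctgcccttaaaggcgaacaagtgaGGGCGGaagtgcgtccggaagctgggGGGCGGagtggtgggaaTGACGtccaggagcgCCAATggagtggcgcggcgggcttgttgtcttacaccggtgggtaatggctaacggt
Of 33469 promoter windows in the RefSeq table (the 250 bases before each start, searched on both strands), 30.5% held GGGCGG, 34.0% CCAAT and 18.2% TGACG. These matches are common ones. TATAAA, found in 12.9% of windows, had no match here. The window held 18 CpG, against a median of 5 over all windows, and its GC content was 55.6% against a median of 51.2%. No data on binding or methylation bear on this window.

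The other locus present in the mutants was MSTRG.15616, a 264 bp stretch antisense to a predicted transcript (AABR07029809.1) within Dnah9, the gene of a heavy chain of ciliary dynein. It lies at chr10:52478923-52479186 of rn6. Mutant levels ran from 0.132 to 0.866 CPM, with 4 to 37 reads per rat. Its log2 difference of 6.94 (SE 1.43) had an edgeR adjusted p of 0.538.

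In the reverse direction 5 loci were present in all wild types and absent in all mutants, 0.0108% of the 46294 loci present in all wild types. Each was an unannotated single exon, and none had enough reads to be tested. MSTRG.52511 (chr2:36061294-36061941 of rn6) had the most, with 5, 20 and 16 reads (0.128, 0.521 and 0.401 CPM) in the wild types. The nearest gene with a symbol was Htr1a, a serotonin receptor gene, 109961 bp away. At this locus the wild-type level was at least 27.7-fold higher than 3 reads over the 6 mutants. The remaining loci held 3 to 6 reads in each wild type: MSTRG.106485 on chromosome 9, MSTRG.28445 antisense to RGD1564463 on chromosome 13, MSTRG.68418 on chromosome 3 and MSTRG.80070 on chromosome 5. These sit at the limit of detection. Just outside the rule, 54 loci absent in all mutants had 2 reads in their lowest wild type, and 6 loci met this limit in the mutant direction. The first asks for reads in 3 rats and none in 6, the second for reads in 6 and none in 3. The 2 counts are therefore not directly comparable.

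Most separated loci were also short and unannotated. The 3 higher in mutants were 0.00901% of the 33282 loci with 5 reads in each mutant, and the 5 lower were 0.0128% of 38956. Besides LOC685025, the higher loci were Rn60_12_0123.1 and MSTRG.70210. Rn60_12_0123.1 (chr12:12203609-12203839 of rn6) had 0.153, 0 and 0.125 CPM in the wild types. Its mutant levels ran from 0.659 to 3.85 CPM with a median of 1.15, and homozygous rat 1 was far above the other mutants. Neither locus passed the test (log2 differences 3.92 with SE 0.76 and 4.09 with SE 0.78, edgeR adjusted p = 0.482 and 0.397).

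Of the separated loci lower in mutants, 2 were neighbours on chromosome 3. MSTRG.70162 (chr3:143921653-143923550) and MSTRG.70168 (chr3:143964325-143966201) lie within 44.5 kb of each other. MSTRG.70162 had 15, 5 and 6 reads in the wild types and 1, 1 and 0 in heterozygous rats. MSTRG.70168 had 10, 10 and 7 reads in the wild types and 0, 2 and 0 in heterozygous rats. Neither had a read in a homozygous rat. The other 2, besides MSTRG.37434, were MSTRG.21036 inside Morc1 on chromosome 11 and MSTRG.36523 on chromosome 15, with 5 to 11 reads in each wild type and at most 1 in any mutant.

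**Figure D2:**
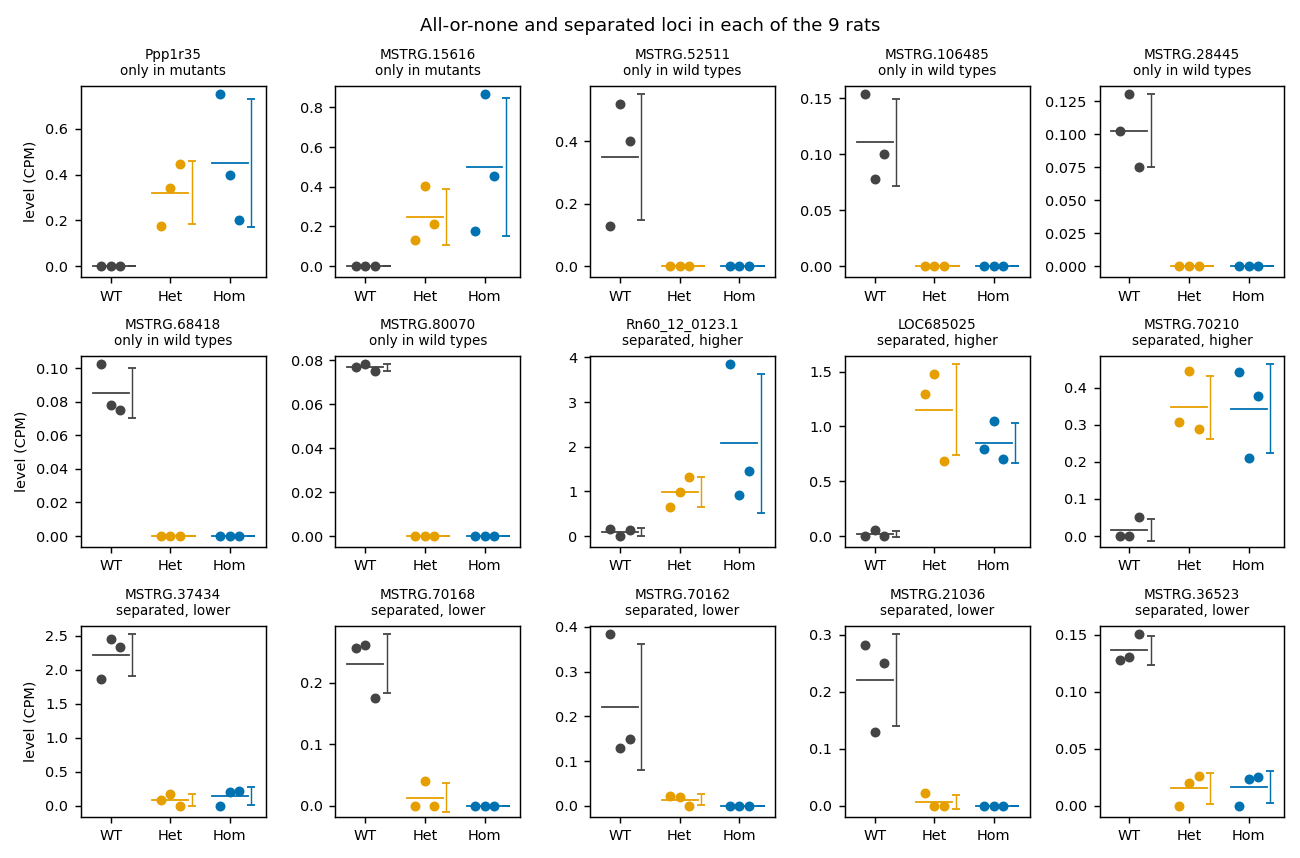
Level in CPM (linear axes, one scale per panel) of the 15 all-or-none and separated loci in each rat, by genotype (WT wild type, Het heterozygous, Hom homozygous). Points are rats, lines are means and bars are ± 1 SD (n = 3); in every panel the 6 mutants lie on one side of the 3 wild types, as the rule requires, and most levels are below 1 CPM.

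Isoforms gave more members than loci. Present in all mutants and absent in all wild types were 29 isoforms, 0.0513% of 56486 present in all mutants, and in the reverse direction 24, 0.0364% of 65896. Separated isoforms were 9 (0.0179%) higher and 8 (0.0139%) lower. The 70 isoforms lay in 69 loci, 14 of the 15 member loci among them, and no locus held members in both directions. In most cases the locus as a whole did not follow. Of 56 tested loci with several isoforms and a member isoform, 53 had a log2 difference between -1 and 1 and 1 was called. Their median locus difference was 0.11, against 0.11 over all symbol genes. In the fit over 63699 isoforms, 2 had an edgeR adjusted p under 0.05 (0.00314%), both lower in mutants. DESeq2 called 199, of which 167 were higher, and limma-voom none. Every mutant lay above every wild type at 862 (1.35%) and below at 1040 (1.63%). On the authors' TPM scale these were 81 and 6122.

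Ston2 had the most abundant isoform found only in mutants. Ston2 codes for stonin 2, an adaptor that helps retrieve synaptotagmin when synaptic vesicles are recycled. Isoform MSTRG.90833.6 (chr6:115392720-115513354 of rn6, 9 exons) had no read in the wild types. Mutant levels ran from 10.9 to 48.5 CPM, with a median of 22.6. Heterozygous rat 3 and homozygous rat 3 were highest, and in them it made up 91.9 and 95.9% of the locus. The summed level of the other Ston2 isoforms was 48.7 ± 9.38 CPM (SD, n = 3) in wild types and 22.2 ± 15.7 (SD, n = 6) in mutants. Ston2 as a locus stood at 48.8 CPM in wild types and 49.4 in mutants. The closest other isoform, MSTRG.90833.4, differs by 38 bases that this isoform lacks. Across all isoforms edgeR gave an adjusted p of 0.121. Isoform MSTRG.90833.6 has no base and no splice junction that the other isoforms of the locus lack. RSEM divides reads between such near-identical models, so its reads were assigned by the combination of exons alone.

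Pxn and Senp2 also had mutant-only isoforms of sizeable share. Paxillin, the Pxn product, is an adaptor at focal adhesions. Its isoform MSTRG.24871.3 on chromosome 12 ranged from 1.62 to 7.36 CPM in mutants (median 5.56), which was 14.7 to 58.4% of the locus. The summed level of the other Pxn isoforms was 11.4 ± 4.56 CPM (SD, n = 3) in wild types and 10.6 ± 2.21 (SD, n = 6) in mutants, and the whole locus stood at 11.4 and 15.6 CPM. SUMO protease gene Senp2 on chromosome 11 had isoform MSTRG.22035.2 at 0.0692 to 17.9 CPM. The low value was homozygous rat 2, with all other mutants at 4.80 CPM or more.

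Among genes with a symbol and a locus level of 1 CPM or more in all 9 rats, the remaining mutant-only isoforms of highest level lay in 7 genes. Ddr1, a collagen-binding receptor tyrosine kinase, had isoform MSTRG.61692.4, which holds a 111 bp stretch that its closest partner lacks. Heterozygous rats had 1.84, 1.58 and 1.06 CPM of it and homozygous rats 17.4, 3.35 and 5.13 CPM, so the genotypes did not overlap. Satb1 (a chromatin organiser), Mapk11 (a p38 kinase), Gng7 (a G protein subunit), Srrm3 (a regulator of neuronal splicing), Tmem248 and Speg each had such an isoform at 0.229 to 3.96 CPM. The loci of these 10 genes, from Ston2 to Speg, differed between the groups by -0.05 to 0.46 on the log2 scale. None of the 10 isoforms passed the test (edgeR adjusted p 0.110 to 0.687).

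Among isoforms found only in wild types, Adamts12 showed an exchange between 2 isoforms. Adamts12 codes for a secreted metalloprotease of the extracellular matrix. Isoform MSTRG.53779.1 had 1.83, 3.91 and 5.16 CPM in the wild types and no read in any mutant. Its partner MSTRG.53779.2 had 1.86, 0 and 0 CPM in the same wild types and 4.13 to 7.27 CPM in the mutants. Wild-type rat 1 thus held both, with 49.7% on the first, and the other rats held 1 of them. The 2 models differ by 15 bases found only in the first and 12 found only in the second. The unannotated locus MSTRG.112733 on the X chromosome had the same form. Its isoform MSTRG.112733.1 took 35.4, 89.6 and 100% of the locus in the wild types and none in the mutants.

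Wnk3, a kinase gene on the X chromosome whose product regulates chloride cotransporters, had isoform MSTRG.110005.6 in wild types only. Levels were 4.70, 5.70 and 3.29 CPM, or 11.2 to 24.5% of the gene. It has a 49 bp stretch (chrX:20318115-20318163 of rn6) that the closest isoform, MSTRG.110005.7, lacks. MSTRG.110005.7 was at 0, 6.39 and 2.52 CPM in the wild types and 4.10 to 14.2 CPM in mutants. The gene as a whole stood at 22.1 CPM in wild types and 21.1 in mutants.

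Other wild-type-only isoforms belonged to Tenm3 (a teneurin, which matches partner neurons), Phldb1, Ptprs (a receptor phosphatase at synapses) and Lama2 (a laminin chain). Tenm3 isoform MSTRG.39334.19 had 2.34, 5.55 and 8.75 CPM, and Phldb1 isoform MSTRG.100436.2 had 7.43, 3.45 and 3.88 CPM. The Phldb1 isoform has no base and no splice junction that the other isoforms of its locus lack. The Lama2 isoform had 0.603, 1.23 and 0.642 CPM. Ptprs isoform MSTRG.104951.5 rested on 1 rat, with 3.30 CPM in wild-type rat 2 and 0.276 and 0.0770 in the others. Agfg1, Sssca1, Actr8 (a subunit of a chromatin remodeller) and RragB (a Rag GTPase in amino acid sensing) completed the 10 of highest level under the same limits, which leave out the unannotated MSTRG.112733.1. Of these 10, the 9 tested had edgeR adjusted p from 0.110 to 0.687.

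**Figure D3:**
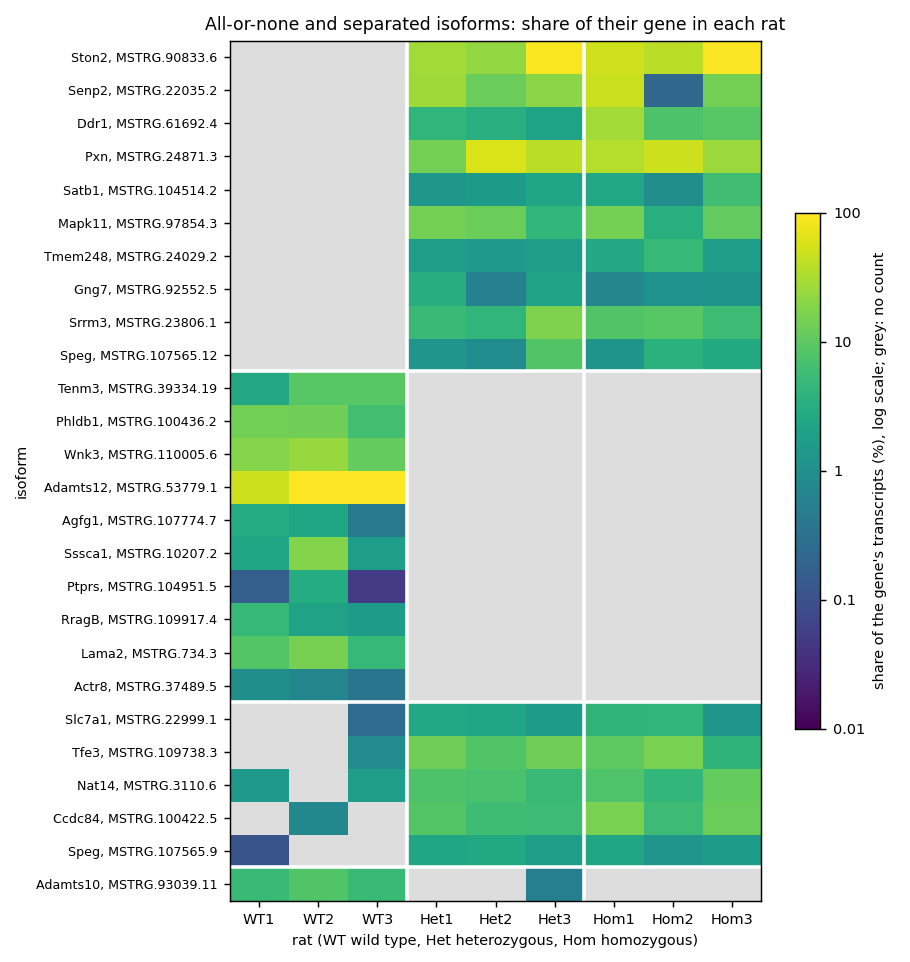
Share of each gene's output assigned to the isoform (%, colour on a log scale, grey where the isoform had no count) for the 26 named all-or-none and separated isoforms in each of the 9 rats. Blocks from top to bottom are isoforms found only in mutants, only in wild types, separated and higher in mutants, and separated and lower; Ston2 and Pxn reach the largest shares in mutants and Adamts12 in wild types.

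The 2 isoforms that passed the test were both separated and lower in mutants. Isoform MSTRG.108335.3 of LOC100911516 (chr9:101106901-101107535 of rn6, 2 exons) had 5.68, 7.75 and 5.67 CPM in wild types and 1 read in all mutants together (log2 difference -9.75, SE 0.51, edgeR adjusted p = 0.00367). It made up 63.5 to 67.6% of its locus in wild types. The whole locus was 15.96 CPM in wild types and 7.96 in mutants, a log2 difference of -1.01. The call was lost without homozygous rat 3 (adjusted p = 0.0995) and in the heterozygous rats alone (0.110). MSTRG.19638.2, an unannotated transcript 49052 bp from Robo2 on chromosome 11, had 1.53, 13.0 and 3.39 CPM in wild types and at most 0.159 CPM in a mutant (log2 difference -7.51, SE 0.86, edgeR adjusted p = 0.00543). Its call was lost without any 1 mutant (adjusted p 0.055 to 0.255). Adamts10 isoform MSTRG.93039.11, at 0.628, 0.690 and 0.719 CPM in wild types and 0 in all mutants but 1, had an adjusted p of 0.0658. Among separated isoforms higher in mutants, those of Slc7a1 (a transporter of cationic amino acids), Tfe3 (a transcription factor for lysosomal genes), Nat14, Ccdc84 and Speg reached medians of 0.212 to 1.01 CPM.

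Members that were separate models of a gene often rested on small differences in structure. Of the 28 mutant-only isoforms in loci with several isoforms, 19 (67.9%) had a splice junction found in no other isoform of the locus and 13 (46.4%) had bases of their own. Over all tested isoforms of such loci the shares were 77.9 and 66.5%. In 5 of the 28 neither was present, so that reads were assigned by the combination of exons alone.

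Chromosome 12, which carries Lrap, held 7 of the 70 loci with a member, which is 10% of them, against 2.80% of tested loci and 2.97% of tested isoforms. All 7 were higher in mutants: Slc7a1, Rn60_12_0123.1, Chst12, Ppp1r35, Srrm3, Tmem248 and Pxn. They lie 7.79 to 31.0 Mb from Lrap, none within 5 Mb. Chromosome 9, with 4.13% of tested isoforms, held more member isoforms, 8 (3 higher and 5 lower in mutants) against 6 on chromosome 12. Loci without overlap between the groups were most frequent on chromosome 12 among the autosomes and X. They were 4.95% of its 1092 tested loci (40 higher and 14 lower in mutants) against 2.89% over all loci. Within 5 Mb of Lrap the share was 3.14%, 7 of 223 loci. In bins of 5 Mb the share was highest, at 9.16% (12 of 131 loci, all higher), in the bin centred 15 Mb before Lrap, which holds Ppp1r35 and Srrm3. For isoforms the highest share, 7.18%, was in the bin centred 20 Mb before Lrap, and the chromosome as a whole stood at 3.69% against 2.99% over all isoforms. These shares are descriptions of 1 set of rats, and neighbouring loci can share sequence.

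The X chromosome held 5 of the 70 loci (7.14%), against 4.25% of tested loci. Of its 1658 tested loci, 48 (2.895%) did not overlap between the groups, close to the 2.888% over all loci. Of the 5 loci with a member, RragB, LOC685025 and Wnk3 form a run of 1377 kb. In this run wild types had their own RragB and Wnk3 isoforms and mutants had LOC685025. RragB isoform MSTRG.109917.4 was at 1.63, 0.614 and 0.975 CPM in the wild types. The other runs of members within 1 Mb were the pair on chromosome 3 described above and Ccdc84 with Phldb1 on chromosome 8, 316 kb in all. In these male rats each X-linked gene is present on 1 chromosome.

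**Figure D4:**
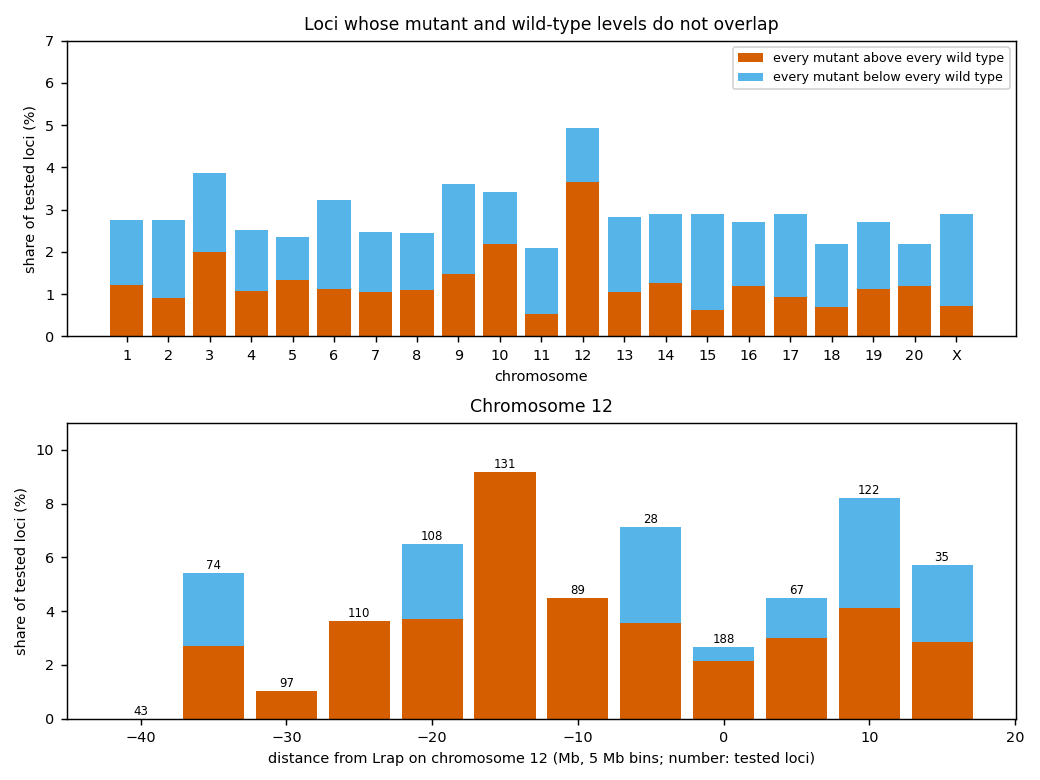
Share of tested loci (%) whose mutant and wild-type levels do not overlap, for each chromosome (top) and along chromosome 12 by distance from Lrap in bins of 5 Mb (bottom, numbers are tested loci). Colours separate loci with every mutant above from those with every mutant below every wild type; chromosome 12 stands at 4.95%, with most of its loci higher in mutants, and the bin around Lrap itself at 2.66%.

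Homozygous and heterozygous rats were compared at the members. The rule did not use this contrast, but it asked for reads in every mutant at members higher in mutants. A feature absent from either mutant genotype could not enter that set, which limits the differences seen there. Of 39057 loci, 1 was called (0.00256%), and of 63699 isoforms none (0%), with 1587 isoforms at an unadjusted edgeR p under 0.05 (2.49%). None of the 5 tested loci higher in mutants was called, and their differences ran from -0.44 to 1.06 on the log2 scale. Ppp1r35 differed by 0.40 (SE 0.55), LOC685025 by -0.44 (SE 0.42) and Rn60_12_0123.1 by 1.02 (SE 0.54). A difference between the mutant genotypes was not detectable at these SEs, which does not show that they were alike. At the 35 tested isoforms higher in mutants, 24 were higher and 11 lower in homozygous rats, with a median of 0.25 (all isoforms -0.01). Ddr1 (2.51) and Tmem248 (1.06) had an unadjusted p under 0.05, and no isoform was called. Lrap's 4-exon isoform differed by -1.52 (SE 0.30) between the same rats, with an edgeR adjusted p of 1.

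**Figure D5:**
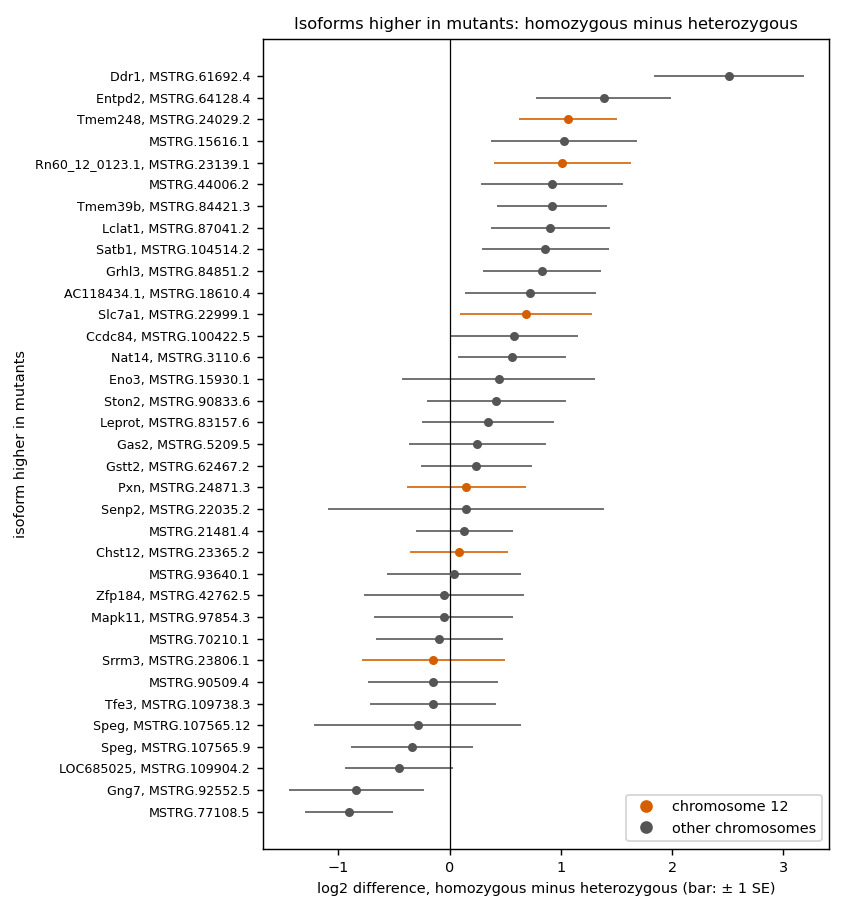
Log2 difference between homozygous and heterozygous rats (points, with bars of ± 1 SE from edgeR, n = 3 each) for the 35 tested isoforms higher in mutants. Isoforms of chromosome 12 are marked in colour; 24 of 35 points lie above 0, and the points run from -0.90 to 2.51.

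The locus called between the mutant genotypes went against the pooling. MSTRG.93883 (chr7:35623485-35626547 of rn6), which has no gene symbol, had 1.46, 1.38 and 1.58 CPM in wild types and 1.38 to 1.76 in homozygous rats, but no read in any heterozygous rat. The homozygous minus heterozygous difference was 8.94 (SE 0.64, edgeR adjusted p = 0.00256). An all-or-none pattern thus also occurred between groups that do not follow the number of deleted copies.

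Genes with a symbol were next examined by p in the pooled test, and none passed. The 10 of smallest p in each direction had edgeR adjusted p of 0.423 to 0.538. Echs1, a mitochondrial enzyme of fatty acid and valine breakdown, had 8.95, 12.9 and 7.80 CPM in wild types and 15.9 to 31.9 in mutants, without overlap. On the authors' TPM scale the groups did overlap. There wild-type rat 2 had 6.14, above heterozygous rat 1 (5.41) and homozygous rat 1 (5.29). Impad1, a phosphatase of the Golgi, had 0, 0.156 and 0.226 CPM in wild types and 0.403 to 1.67 in mutants. Kcnk15, Igfbp6, Fbln1, Tnfaip6, Aldh1a2, Myo19 and Shisa3 had log2 differences of 0.66 to 2.23. Igfbp6, Fbln1 and Aldh1a2 (which makes retinoic acid) are products of fibroblasts of the meninges, the membranes around the brain. On the authors' TPM scale the groups overlapped at each of these genes. The 9 measured meningeal markers were higher in mutants at 9 of 9 loci, 6 with an unadjusted p under 0.05. Their median log2 difference was 0.73, against 0.11 over all symbol genes and -0.05 over all loci. Their mean level was 2.99 to 3.61 log2 CPM in wild types and 3.74 to 4.39 in mutants, and wild-type rat 2 was lowest. Without that rat the median was 0.56. The part of meninges in these differences was not tested.

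Genes lower in mutants by the same ranking included those of red blood cells: Alas2 and Hemgn, which act in red cell precursors, and Hbb, a haemoglobin chain. Hbb was 239 ± 114 CPM (SD, n = 3) in wild types and 127 ± 32.7 (SD, n = 6) in mutants, with overlap. All 6 tested blood markers were lower, 5 with an unadjusted p under 0.05, at a median of -1.06. The median was -0.77 for heterozygous and -1.63 for homozygous rats. Heterozygous rat 3 had a mean of 2.603 log2 CPM over these markers, above the wild types at 2.00 to 2.59, and the other 5 mutants had 1.13 to 1.46. Alas2 has 2 assembled loci, and the one in this ranking did not overlap between the groups while the more abundant one did (log2 differences -0.82 and -0.74). Pstk, Lgals5, Msantd2, Tmeff2, Bptf and Myo1e also lay lower in every mutant, by -0.94 to -0.36, and Pkp2 was lower with overlap. The loci of Pkp2, Bptf and Myo1e in this ranking were models of 1 exon (8178, 10641 and 6243 bp). Their levels need not follow those of the spliced transcripts of these genes. The share of blood in these differences was not tested.

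Lists of pathway and cell type genes, chosen with earlier results known, held no called locus. Their medians were above 0 in 20 of 23 lists (17 without wild-type rat 2), at 0.11 for all symbol genes. All 16 tested immediate early genes had a log2 difference above 0 (median 0.81, 7 with an unadjusted p under 0.05). So did all 23 tested genes of antigen presentation (median 0.39, 1 with an unadjusted p under 0.05). Each of these genes overlapped between mutants and wild types, and so did the mean level of each list. Over the immediate early genes, wild-type rat 1 lay above heterozygous rat 1 and homozygous rat 1. Over antigen presentation, wild-type rat 3 lay above heterozygous rats 1 and 2 and homozygous rat 1. Junb, a subunit of the AP-1 transcription factor, had 3.20 ± 2.06 CPM (SD, n = 3) in wild types and 9.12 ± 4.15 (SD, n = 6) in mutants. RT1-A2, a class I molecule that presents peptides, had 7.23 ± 3.83 CPM (SD, n = 3) and 13.1 ± 3.86 (SD, n = 6). Markers of microglia (median 0.34) and astrocytes (0.32) were higher at 9 of 10 and 8 of 8 loci, and those of the choroid plexus (-0.36) lower at 9 of 10. Without wild-type rat 2 these medians were 0.33, 0.18 and 0.07, so that the choroid plexus list changed sign. The list of centriole and cilium genes, to which Ppp1r35 belongs, had a median of -0.02, with 3 genes higher and 10 lower. Ppp1r35 was its only member without overlap between the groups, and Cep295 came next by p (log2 difference -0.29, SE 0.16, edgeR adjusted p = 0.546). Of 12 listed abundant short non-coding RNAs, 3 were found among the assembled loci, and all 3 were higher without overlap. Over all tested loci the share with every mutant above every wild type was 1.27%. The 3 included Rn7sl1 (log2 difference 1.14, SE 0.27, edgeR adjusted p = 0.538), whose copies share reads, and Rmrp (1.34, SE 0.40). The mean level of the 3 RNAs was lowest in wild-type rat 2, without which their median was 0.85 in place of 1.14.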

How the data were processed

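RNA from whole brain was sequenced as strand-specific, ribosomal RNA-depleted libraries, 1 per rat. The submitters' processing notes name cutadapt, HISAT2, StringTie, RSEM and the build rn6, with no versions. For loci and for isoforms the authors deposited expected counts from RSEM, which were rounded to whole numbers here, TPM (scaled by the authors to a fixed sum per library, spike-ins included) and the percent of each locus assigned to an isoform. The sources used here do not say whether counting used the strand.

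Spike-in loci were left out. Library sizes were scaled by TMM, and levels are CPM on that scale. Loci and isoforms were filtered with filterByExpr over the 2 pools and tested with edgeR 4.0.16 (R 4.3.3) by its quasi-likelihood test, 6 mutants against 3 wild types, with Benjamini-Hochberg adjustment over all of them and a threshold of 0.05. Homozygous minus heterozygous came from a fit of 3 genotypes. SEs are those of the log2 difference. Permutation tests were exact and two-sided, with the smaller tail doubled. A fold against a group at 0 was computed against 3 counts over that group, and intervals of ratios (95%) cover counting error only. With 27489383 to 46975919 counts per library, 3 counts equal 0.0639 to 0.109 CPM. The tests were run on simulated data first.

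The members, lists and tests were chosen with earlier results of these data known. Genes were named by rule: all-or-none and separated features by class and level, the 10 genes with a symbol and the smallest p, per direction, and members of runs. From the lists, genes named for p were among the 2 of smallest p in a list. Values of MSTRG.112733.1, and of the 2 isoforms that passed the test, were added after their values were seen. No 2 libraries held identical values, and each pair of libraries within a group differed by more than counting noise. Nothing states that replicates were independent beyond each being 1 rat. Alternatives covered scaling, filtering, tool, blocking, each rat left out, and the limits of the all-or-none and separated rules.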

Additional observations from a re-analysis of the deposited data

Results flagged for a closer look

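Within the 6 mutants, 133 groups of values were examined for a rat far from the others (Dixon's gap test), and 14 were found. Chance gives such a rat in about 1 of 20 groups, a rate that does not hold where all other mutants are at 0. Any read in 1 rat then raises the flag. Among loci, homozygous rat 1 had 3.85 CPM at Rn60_12_0123.1, where the other mutants had 0.659 to 1.46. At MSTRG.70168 heterozygous rat 2, at 0.0404 CPM, and at MSTRG.21036 heterozygous rat 1, at 0.0220 CPM, were the only mutants with reads. Heterozygous rat 1 was low at Igfbp6, with 1.63 CPM against 3.25 to 3.88, and at the immediate early gene Egr4, with 0.967 against 1.77 to 2.18. Heterozygous rat 2 was low at Pkp2, with 0.566 CPM against 0.842 to 0.946. Homozygous rat 1 was high at Pcdhga2, with 12.3 CPM against 7.93 to 9.16.

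Among isoforms, homozygous rat 1 had 17.4 CPM of Ddr1 MSTRG.61692.4 against 1.06 to 5.13 in the other mutants. Homozygous rat 2 had 3.00 CPM of Tmem248 MSTRG.24029.2 against 0.792 to 1.59, and heterozygous rat 1 had 1.99 CPM of Gng7 MSTRG.92552.5 against 0.396 to 0.981. In 3 isoforms lower in mutants, 1 mutant was flagged where the others had no read or almost none. Heterozygous rat 3 had 0.0796 CPM for Adamts10 MSTRG.93039.11 and 0.159 for MSTRG.19638.2, and homozygous rat 3 had 0.0254 for LOC100911516 MSTRG.108335.3. The mean of the blood markers was 2.603 log2 CPM in heterozygous rat 3 and 1.13 to 1.46 in the other mutants.

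The difference between homozygous and heterozygous rats at MSTRG.93883, 8.94 on the log2 scale (edgeR adjusted p = 0.00256), was a tested difference between the pooled genotypes. The locus had no read in the 3 heterozygous rats.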

How the results depend on the processing

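Counts of called features were small and moved with the tool. Against 2 called loci, no filter gave 7, DESeq2 32, limma-voom 0 (with 3350 loci at an unadjusted p under 0.05), heterozygous rats alone 7 and homozygous rats alone 0. Leaving out 1 rat gave 1 to 6. Against 2 called isoforms, no filter gave 11, DESeq2 199, limma-voom 0, the fit of 3 genotypes 1, homozygous rats alone 1, and leaving out 1 rat 1 to 18 (18 without wild-type rat 1, 11 without wild-type rat 2). Between the mutant genotypes, 1 locus became 2 with other size factors or limma-voom and 6 with DESeq2, and leaving out 1 rat gave 1 to 2.

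Same-numbered rats of different genotypes correlated at -0.11 to 0.27 over loci in their deviations from group means. Rats of different numbers correlated at -0.38 to 0.28. These ranges overlap, and the values do not settle whether the numbers pair the rats. With the replicate number as a block, called loci went to 3, called isoforms to 0 (LOC100911516 MSTRG.108335.3 at an adjusted p of 0.0821 by edgeR), and loci between mutant genotypes to 2.

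The membership rules depended on their limits. All-or-none loci (7) became 1135 when 1 read counted as present, 2 at 5 reads and 0 at 10. They became 58 when 1 read counted as absent, 1130 when any TPM above 0 counted as present, and 11 to 74 without 1 rat. The TPM rule had no minimum of 3 reads, so it changed the limit along with the scale. All-or-none isoforms (53) became 1193, 24 (10 reads), 110 and 1192 in turn, and 81 to 239 without 1 rat. Separated loci (8) became 34 at a gap of 2, 1 at a gap of 10, 17 on the TPM scale and 9 to 31 without 1 rat, and separated isoforms (17) became 77, 3, 31 and 23 to 78. Loci without overlap (1128) became 3899 on the TPM scale and 2198 without wild-type rat 2, and isoforms (1902) became 6203 and 3777.

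The Lrap level of 30.9% ranged from 27.3 to 34.8% without 1 rat. Without wild-type rat 1, 2 or 3 it was 32.8, 28.4 or 31.9%. There the permutation test, which doubles the smaller tail, cannot reach 0.05 with 6 against 2 rats. Lists with a median above 0 (20) were 17 to 21 without 1 rat. The pooled difference at MSTRG.93883 changed sign, to 0.064, with homozygous rats alone. Of 1285 alternative values at named loci 1260 kept direction and side of the threshold, and of 559 at named isoforms 513. Most named features had not passed the test, so for them staying above the threshold counted as kept. The called ones kept their call less often. Of 19 alternatives, LOC685025 kept it in 15 and MSTRG.37434 in 16. Isoforms LOC100911516 MSTRG.108335.3 and MSTRG.19638.2 kept it in 15 and 8 of 19. Depth limits the all-or-none calls, since 3 reads are near the smallest level a library could show.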
